A study of Mus musculus with 8 samples.

Results

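ATAC-seq summits were examined at 10 genes that run the expression and copying of mitochondrial DNA in brown adipose tissue (BAT) of cold-exposed mice: Nrf1, Gabpa, Tfam, Tfb1m, Tfb2m, Polrmt, Polg, Polg2, Ssbp1 and Top1mt. The genes were chosen by name, by a rule that used no score, although earlier results of these data were known. In ATAC-seq a transposase cuts and tags accessible DNA, and a summit is the position of highest signal within a called peak. A summit was counted for a gene when it lay inside the gene, or no more than 50 kb from the transcription start site (TSS) of one of its RefSeq mRNAs. By this rule, 37 of the 32173 summits in the deposited list fell in the 10 loci, which is 0.115% of the list. The 10 genes were 10 of 21000 genes with a curated mRNA on the chromosomes examined.

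BAT nuclei came from 2 WT and 2 Dot1L-BKO mice, each mouse giving 1 library, and were processed separately. WT mice were littermates that carried floxed Dot1l alleles, and Dot1L-BKO mice carried the same alleles with Cre under the Ucp1 promoter, so that the histone H3K79 methyltransferase gene Dot1l was removed in Ucp1+ cells and kept in the other cells of the tissue. All mice were 12 weeks old, were fed chow and spent 4 hr at 4°C before tissue collection. The 4 libraries were deposited as 1 list with 1 score per summit, the −log10 of its MACS2 q-value, and with no value for any library. Read depth and replicate error were therefore unknown, and no comparison of WT with Dot1L-BKO mice could be made at these genes. Its name sets the WT libraries against those of Dot1L-BKO mice, but does not say if the latter were the control in peak calling. If they were, a score would be enrichment in WT over Dot1L-BKO mice and not openness, and this holds for every summit, score and missing summit below. The scores were used to rank summits within the list. In nuclei from a whole tissue, a summit cannot be assigned to a cell type, and fewer open nuclei cannot be told apart from weaker opening in each nucleus.

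The mitochondrial genome is transcribed and copied by proteins that are encoded in the nucleus and imported. NRF1, a transcription factor that binds GC-rich palindromes, and GABPA, the DNA-binding ETS subunit of the factor GABP (also called NRF2), are known activators of many of these nuclear genes. TFAM packages mitochondrial DNA and, with TFB2M, allows the RNA polymerase POLRMT to start transcription, and POLG, POLG2 and SSBP1 act at the replication fork. BAT is rich in mitochondria, and the study measured H3K79 methylation by ChIP-qPCR near the starts of Nrf1 and Tfam in this tissue.

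The letter pattern bound by ETS factors of the GABPA type, CCGGAAG or its reverse complement CTTCCGG, lay close to the TSS in 6 of the 9 genes with a promoter sequence in the RefSeq table of GRCm38 (mm10). Top1mt was not in that table. These sites are shown because their letters recur across genes of transcription and of replication, and each is printed on the strand of its gene with the match in capitals.
Gabpa, chr16:84835020-84835048, plus strand: gagggtaagtgCTTCCGGgtccctcagct
Tfam, chr10:71238074-71238102, minus strand: cctgccgcggaCCGGAAGtccgggcttcc
Polrmt, chr10:79746607-79746635, minus strand: ccctaagagcgCTTCCGGcagtcgcagaa
Polg, chr7:79466294-79466322, minus strand: gaggacctcacCCGGAAGtccctctgcac
Polg2, chr11:106779549-106779577, minus strand: cgggtgacgctCTTCCGGgggcgtggtct
Ssbp1, chr6:40471410-40471438, plus strand: ggctccgtgcgCCGGAAGcgagccgctgg
With the base at the TSS counted as 0, the matches began at -93 in Gabpa, -47 in Tfam, -43 in Polrmt, -38 in Polg, -29 in Polg2 and -47 in Ssbp1. The Ssbp1 position is from the later of its 2 TSSs. The match lies just after the earlier one, within that transcript. Over the 300 bases from 250 before to 50 after the TSS, 13.3% of 16853 genes held the pattern. Within the 100 bases before the TSS, a window chosen after the 6 matches were seen, the share of all genes was 7.77%. Within 100 bp of the highest promoter summit, the ETS pattern was present at 1 of the 9 genes with such a summit (Gabpa), beside 13.3% of 8576 promoter summits of all genes.

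The NRF1 pattern, GCGCANGCG or its reverse complement CGCNTGCGC, was present in the same promoters of Tfb2m and Polrmt. It was found in 2 of the 9 genes, beside 9.97% of 16853 genes. The matches are in capitals and lie at the TSS or within the first bases of the transcript.
Tfb2m, chr1:179546246-179546275, minus strand: gctaggtcgttCGCATGCGCcattcgtaat
Polrmt, chr10:79746565-79746593, minus strand: caggcggCGCGTGCGCGTGCGCactgcgg
In Polrmt, 2 overlapping matches made 1 run. Polrmt was the gene that held both patterns, and the Tfb1m and Nrf1 promoters held neither. A match describes letters and not binding, and the absence of a match says only that these letters were not in the window.

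A summit no more than 1 kb from a TSS, called a promoter summit here, was present at 9 of the 10 genes, while 45.2% of all 21000 genes had one. The gene without a promoter summit was Nrf1. With a window from 1 kb upstream to 100 bp downstream of the TSS, the count was 5 of the 10 genes beside 7382 of the 21000, and the median score of the genes left was 35.0. A promoter summit with a score of at least 5 was present at 8 of the 10 genes (36.1% of all genes), one of at least 10 at 5 genes (23.5%) and one of at least 30 at 4 genes (6.64%). The highest promoter scores of the 9 genes ran from 4.16 at Ssbp1 to 98.3 at Gabpa with a median of 15.4. Over the 9485 genes with a promoter summit, the median was 10.7 and the quartiles were 5.55 and 20.9. Thus, 5 of the 9 genes were above the median and 4 above the upper quartile.

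**Figure D1:**
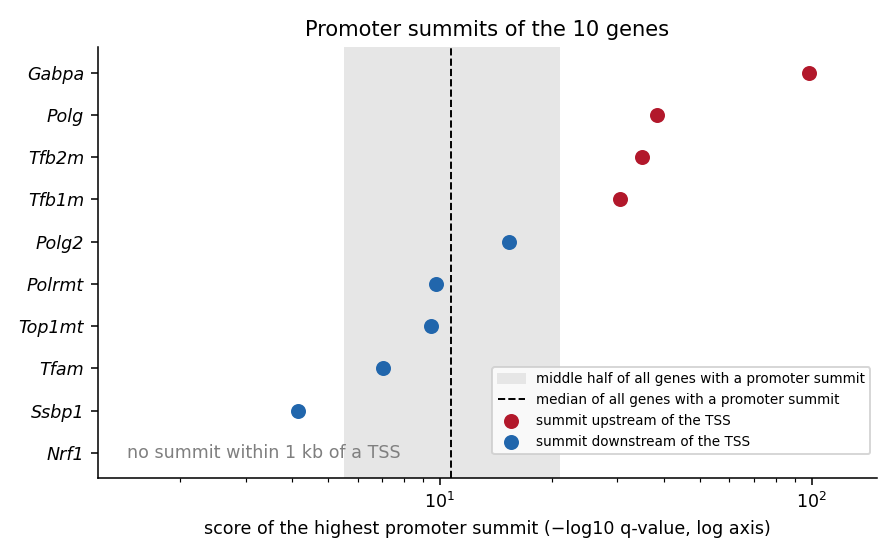
Score of the highest promoter summit (−log10 q-value, log axis) for each of the 10 genes, with the median (dashed line) and the quartiles (grey band) of the 9485 genes with a promoter summit. Gabpa, Polg, Tfb2m and Tfb1m, whose summits lay upstream of the TSS, are to the right of the band, Ssbp1 is to its left, and Nrf1 had no promoter summit.

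Among the regulators, Gabpa had a strong promoter summit. It was at chr16:84834908, 216 bp upstream of the Gabpa TSS, with a score of 98.3, which was rank 61 of 32173 summits and above 99.6% of the genes with a promoter summit. This place is shared with Atp5j, which encodes a subunit of the mitochondrial ATP synthase and is transcribed in the opposite direction. The nearest Atp5j TSS was 102 bp from that of Gabpa, and the summit was 68 bp from an Atp5j TSS, in exon 2 of the Atp5j 5′ UTR. The summit can therefore not be assigned to 1 of these genes. A second ETS match began near it, centred 46 bp upstream of the summit position on the Gabpa strand. The second summit of the locus was in intron 1 of Gabpa, 1223 bp downstream of the Gabpa TSS and thus just outside its promoter window, with a score of 11.3. Measured from its nearest TSS, which was one of Atp5j, it lay at -722 bp and thus within the promoter window of that gene. Within 100 bp of that summit, the letters held an NRF1 palindrome, a pattern present at 3.03% of all summits, and the pattern of the estrogen-related receptors, TCAAGGTCA in reverse complement, present at 0.454%.

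Nrf1 differed from the other 9 genes in having its summit far from its starts. Its curated mRNAs begin at 3 TSSs, and the one shared by most of them is at chr6:30047988. The nearest summits on its sides were 62690 bp upstream and 73308 bp downstream. The interval between these summits was 135998 bp, which was longer than for 54.7% of 20949 genes, and the median was 108171 bp. The downstream summit, at chr6:30121296 in intron 10 of an mRNA with 12 exons, was the one summit of the Nrf1 locus. Its score was 10.1, rank 7484 of the list and above 76.6% of all summits, and it lay 34131 bp from the closest TSS of Nrf1. For 34.0% of all genes, the nearest summit was farther than this. A missing summit is a call at the chosen threshold and does not show that the chromatin of the Nrf1 start was closed.

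The Nrf1 promoter is shown because it was the one of the 10 genes without a promoter summit, together with the site of its summit in intron 10. The capitals of the ETS and NRF1 patterns are absent from both, since neither held a match.
Nrf1 upstream of the TSS, chr6:30047738-30047984, plus strand: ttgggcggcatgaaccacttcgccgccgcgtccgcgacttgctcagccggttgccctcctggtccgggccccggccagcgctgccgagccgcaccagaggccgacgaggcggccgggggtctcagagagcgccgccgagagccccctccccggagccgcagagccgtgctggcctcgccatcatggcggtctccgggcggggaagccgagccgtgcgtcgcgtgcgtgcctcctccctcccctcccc
Nrf1 intron 10 summit, chr6:30121196-30121396, plus strand: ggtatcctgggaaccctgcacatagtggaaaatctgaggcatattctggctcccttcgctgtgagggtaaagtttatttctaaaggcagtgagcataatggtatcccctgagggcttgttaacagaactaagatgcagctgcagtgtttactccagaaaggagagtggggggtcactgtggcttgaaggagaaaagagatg
The 300 bases around this TSS were 77.0% G or C, which was higher than in 96.7% of promoters, and the ratio of observed to expected CpG was 0.97. The window at the intronic summit was 47.8% G or C. In the top decile of promoter GC content, 66.6% had a promoter summit and 33.4%, Nrf1 among them, did not. The part of GC content in the Nrf1 result was not tested.

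**Figure D2:**
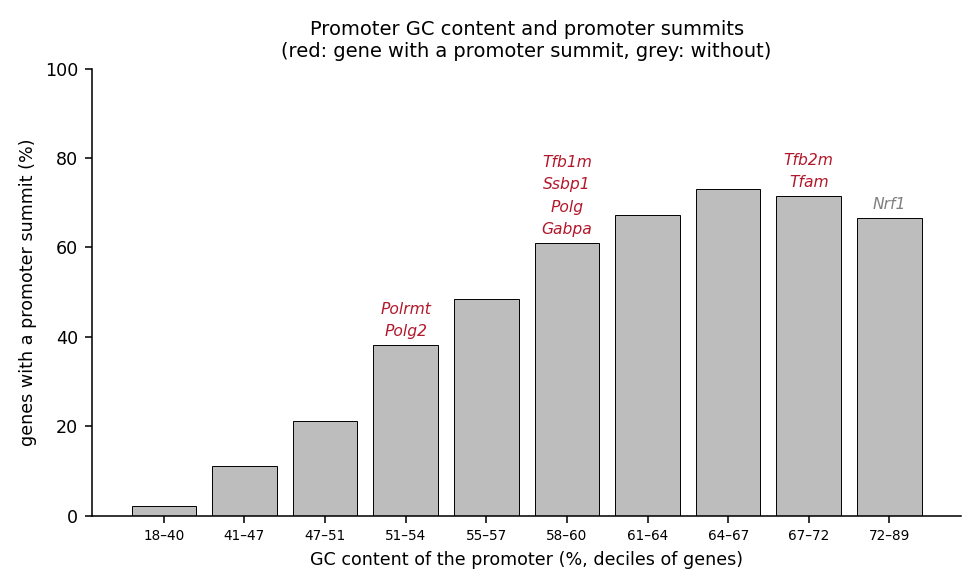
Share of genes with a promoter summit (%) in deciles of promoter GC content (%), with the names of the 9 genes of the set that have a promoter sequence. The share goes from 2.09% in the lowest decile to at most 73.1%. Gabpa, Polg, Ssbp1 and Tfb1m share 1 decile, and Nrf1 is in the highest.

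Of the transcription genes, Tfam, Tfb2m and Polrmt each had a promoter summit, as did Tfb1m, a relative of Tfb2m that methylates the small mitochondrial ribosomal RNA. Their scores ran from 7.05 to 35.0, with those of Tfb1m and Tfb2m above those of Tfam and Polrmt. Tfam, the packaging and transcription factor, had 1 summit in its locus, at chr10:71237846. It lay 198 bp downstream of the TSS in coding exon 1, and its score of 7.05 was above 32.9% of the genes with a promoter summit. The next summit was 106931 bp from the Tfam TSS. The sequences below show the ETS match upstream of the start, and the part of the summit window outside the 5′ UTR, which held no ETS or NRF1 match.
Tfam upstream of the TSS, chr10:71238045-71238290, minus strand: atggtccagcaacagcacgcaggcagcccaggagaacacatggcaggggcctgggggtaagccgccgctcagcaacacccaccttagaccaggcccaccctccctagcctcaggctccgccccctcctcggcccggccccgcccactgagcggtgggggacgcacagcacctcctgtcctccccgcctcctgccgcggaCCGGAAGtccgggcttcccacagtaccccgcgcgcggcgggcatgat
Tfam summit window, chr10:71237746-71237940, minus strand: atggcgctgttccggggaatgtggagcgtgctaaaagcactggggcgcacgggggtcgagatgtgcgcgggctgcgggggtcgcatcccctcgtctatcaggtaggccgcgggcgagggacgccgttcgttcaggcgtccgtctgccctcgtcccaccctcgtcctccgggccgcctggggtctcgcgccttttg
Among genes whose highest promoter summit lay from 0 to 199 bp downstream of a TSS, the quartiles of the score were 6.02 and 18.1, so that Tfam was within this range.

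Tfb2m, the initiation factor, had its promoter summit at chr1:179546349, 73 bp upstream of the TSS. The score was 35.0, rank 1192 of the list and above 89.0% of the genes with a promoter summit. Cnst, which encodes a protein of connexin transport, starts on the opposite strand 253 bp from the Tfb2m TSS, and the second summit of the locus, with a score of 11.1, was in intron 1 of Cnst. The NRF1 match printed above was 89 bp from the Tfb2m promoter summit. Tfb1m had 1 summit, at chr17:3557860, 105 bp upstream of its TSS, with a score of 30.5, which was above 86.2% of the genes with a promoter summit. The start of a non-coding RNA, 1700102H20Rik, was 36 bp from it on the opposite strand. These windows, which were the 2 highest summits among the transcription genes, are shown as far as they lie outside annotated UTRs.
Tfb2m summit window, chr1:179546277-179546443, minus strand: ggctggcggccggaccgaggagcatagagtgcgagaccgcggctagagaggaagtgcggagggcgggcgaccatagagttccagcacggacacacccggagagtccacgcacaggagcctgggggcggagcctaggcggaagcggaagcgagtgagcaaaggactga
Tfb1m summit window, chr17:3557760-3557960, minus strand: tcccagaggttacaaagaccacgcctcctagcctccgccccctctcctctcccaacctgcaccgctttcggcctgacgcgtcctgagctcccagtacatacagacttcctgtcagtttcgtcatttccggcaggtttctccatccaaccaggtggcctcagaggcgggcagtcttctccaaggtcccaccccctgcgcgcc
Neither stretch held an ETS or NRF1 match, and the GC box GGGCGG, or CCGCCC, was within 100 bp of both summits. The GC box was present at 3 of the 9 highest promoter summits (Tfb1m, Tfb2m and Polrmt), beside 49.0% of 8576 promoter summits of all genes.

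Polrmt, the mitochondrial RNA polymerase, lay in the most crowded locus. Its promoter summit was at chr10:79746491, 90 bp downstream of the TSS in coding exon 1, with a score of 9.76, close to the median of 10.7 over all genes with one. A weaker summit in intron 2 was 2753 bp downstream of the TSS, with a score of 4.16. The locus held 20 summits, more than 96.7% of all genes had, and 18 of these were nearest to the TSS of another gene. The highest of them, with a score of 20.1, was in intron 3 of Fstl3, which encodes a secreted protein that binds activins. The NRF1 run of Polrmt was centred 85 to 91 bp upstream of its summit on the gene strand. The stretch further upstream, with the ETS match in capitals, was low in GC.
Polrmt upstream of the TSS, chr10:79746605-79746831, minus strand: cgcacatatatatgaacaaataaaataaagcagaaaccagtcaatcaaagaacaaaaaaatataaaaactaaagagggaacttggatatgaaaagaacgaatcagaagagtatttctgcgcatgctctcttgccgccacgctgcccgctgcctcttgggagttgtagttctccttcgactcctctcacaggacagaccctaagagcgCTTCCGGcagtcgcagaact
The printed bases were 44.1% G or C, beside 52.0% over the 300 bases of the promoter.

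Of the replication genes, Polg had a strong promoter summit, Polg2 an intermediate one, and Top1mt and Ssbp1 had scores below the median of all genes. Polg encodes the catalytic subunit of the mitochondrial DNA polymerase. Its summit was at chr7:79466436, 163 bp upstream of the main TSS, with a score of 38.3, rank 1004 of the list and above 90.8% of the genes with a promoter summit. A second summit in intron 2 had a score of 2.53 and was within the promoter window of a later TSS, 712 bp upstream of it. Polg2, the accessory subunit, had its promoter summit at chr11:106779258, 279 bp downstream of the TSS in coding exon 1, with a score of 15.4, above 64.1% of the genes with one. The highest summit of the Polg2 locus was at the start of a neighbour. Its score was 33.3, and it was 33 bp from a TSS of Ddx5, which encodes an RNA helicase of the nucleus. A non-coding transcript of Cep95 starts 234 bp from this summit on the plus strand, so that it cannot be assigned to Ddx5 alone.

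Ssbp1 encodes the protein that covers single-stranded mitochondrial DNA. Its summit at chr6:40471575, 107 bp downstream of the later TSS in exon 1 of the 5′ UTR, had a score of 4.16, the lowest of the 9 genes. This score was above 12.5% of the genes with a promoter summit, and 1942 summits of the list shared it. It was the one summit within 396311 bp of an Ssbp1 TSS. Top1mt, the mitochondrial topoisomerase, had its promoter summit at chr15:75678532 in intron 1, 268 bp downstream of the TSS, with a score of 9.47. Its window held the CCAAT box, in either direction, at 3 places. This pattern was found at 1 of the 9 highest promoter summits of the genes and at 29.7% of those of all genes.

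**Figure D3:**
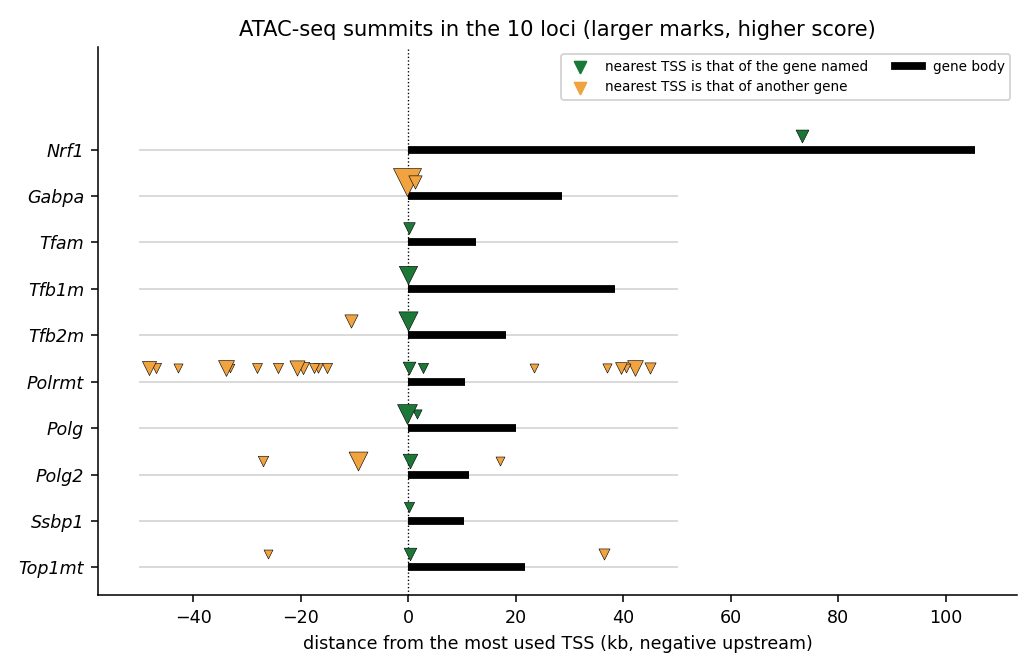
Summits in the 10 loci by distance from the TSS that most mRNAs of each gene share (kb, negative upstream), with gene bodies as black bars and larger marks for higher scores. Green marks have their nearest TSS in the gene named and orange marks in another gene. The Polrmt locus holds 20 of the 37 summits, and the Nrf1 mark is far inside the gene.

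Each summit was then placed against the nearest TSS of its own gene. The 4 genes with the highest summit upstream of the TSS (Gabpa, Tfb1m, Tfb2m and Polg) had scores from 30.5 to 98.3, with a median of 36.7. The 5 genes with it downstream (Tfam, Polrmt, Polg2, Ssbp1 and Top1mt) had scores from 4.16 to 15.4, with a median of 9.47, and the ranges did not overlap. Gabpa, at 98.3, was counted as upstream although its summit was nearest to a TSS of Atp5j and cannot be assigned to 1 of these genes. The other 3 upstream genes had scores from 30.5 to 38.3, and with Gabpa counted by Atp5j, for which the summit is downstream, the ranges would overlap. Among all genes with a promoter summit, the 57.4% with it upstream had a median of 13.4, with quartiles of 6.87 and 25.4. Those with it downstream had a median of 8.12, with quartiles of 4.61 and 14.7, so that these classes overlap over all genes. Within bins of 200 bp, the upper quartile of all genes was 28.5 from -400 to -201 bp and 25.7 from -200 to -1 bp. Gabpa, Polg, Tfb1m and Tfb2m were each above the upper quartile of their bin. Downstream, Polg2 was also above the upper quartile of its bin, which was 11.5, Polrmt, Tfam and Top1mt were between the quartiles, and Ssbp1 was below the lower one. The ETS matches near the TSS were present in Gabpa and Polg of the first group and in Tfam, Polrmt, Polg2 and Ssbp1 of the other.

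**Figure D4:**
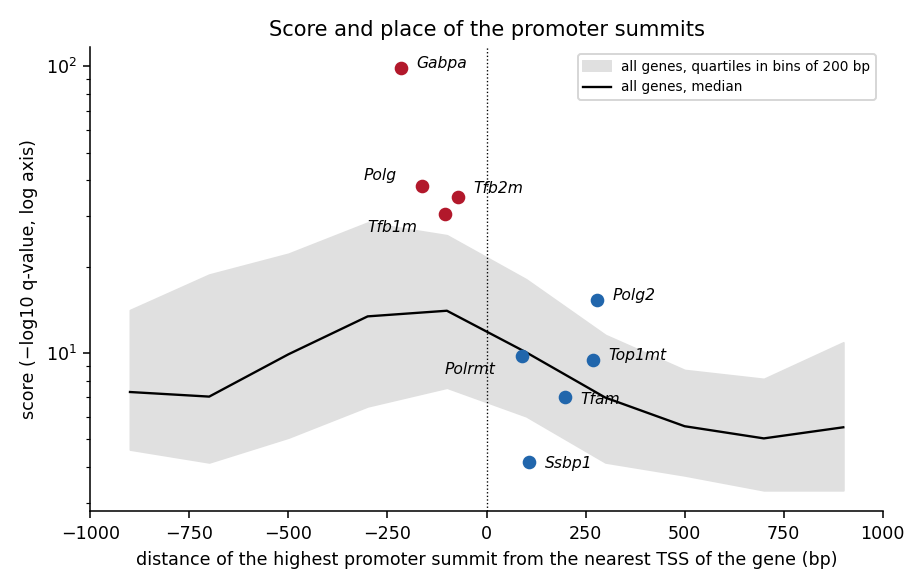
Score (−log10 q-value, log axis) of the highest promoter summit against its distance from the nearest TSS of the same gene (bp, negative upstream) for the 9 genes with one, red upstream and blue downstream. The line and band are the median and quartiles of all genes in bins of 200 bp. The 4 red points are above the band, and of the blue points Polg2 is above it and Ssbp1 is below it.

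An mRNA start on the opposite strand within 1 kb was found for Gabpa and Tfb2m. Non-coding RNAs were not counted here, such as the one that starts beside Tfb1m. Both had a promoter summit, as did 88.8% of the 2061 genes with such an mRNA start, whose median score was 16.0. Of the 18939 other genes, 40.4% had a promoter summit, with a median of 9.28. Of the other 8 genes of the set, 7 had a promoter summit, and the median of their highest scores was 9.76.

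All 10 loci held at least 1 summit, beside 72.5% of all genes. The number was 1 at Nrf1, Tfam, Tfb1m and Ssbp1, 2 at Gabpa, Tfb2m and Polg, 3 at Top1mt, 4 at Polg2 and 20 at Polrmt, while the median of all genes was 2 with quartiles of 0 and 5. Of the 37 summits, 21 were in introns, 10 were intergenic, 3 were in coding exons and 3 in exons of a 5′ UTR. For 11 of the 37, the nearest TSS was that of a member of the set. A further 8 were within 1 kb of the TSS of another gene and not of a member. The Gabpa promoter summit, nearest to a TSS of Atp5j, is in neither count. A score of at least 20 was reached by 6 of the 37. At the edge of the 50 kb window, the farthest summit inside it was 48204 bp from the Polrmt TSS with a score of 14.0, and the closest outside it was 50348 bp from the same TSS with a score of 2.92. No summit of the list was on the mitochondrial chromosome.

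A wider list of genes that act on mitochondrial DNA and RNA, or with NRF1 and GABPA, was counted in the same way. Of 53 genes listed, 52 had a curated mRNA (Trmt61b did not), and 43 of these, or 82.7%, had a promoter summit with a median score of 11.6. In replication and maintenance, 13 of 16 genes had one, and the highest score was 66.4 at Dguok, a kinase that supplies deoxynucleotides in mitochondria. Rnaseh1, which removes RNA from hybrids with DNA, the nuclease and helicase gene Dna2 and the mitochondrial thymidine kinase gene Tk2 had none. In transcription, 6 of 7 had one, the highest at Mterf3 with 19.4, and Mterf4 had none, both members of the mitochondrial termination factor family. In RNA processing and stability, 18 of 22 had one, and the highest was 34.2 at Mrm1, an RNA methyltransferase. Slirp, an RNA-binding protein, Pnpt1, an exoribonuclease, Hsd17b10, a subunit of mitochondrial RNase P, and Mrm2, a second RNA methyltransferase, had none.

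Of the partners of NRF1 and GABPA, 6 of 7 had a promoter summit. The highest score was 123.5 at Sp1, a factor that binds GC boxes, and Gabpb2, a partner subunit of GABPA, had none. The ETS pattern was in the promoters of 16 of 47 genes of the wider list with a promoter sequence, beside 6 of 9 genes of the set and 13.3% of all genes. Of these 16, Mrm2, Mterf4, Slirp and Tk2 had no promoter summit. Over all genes, 79.3% of those with the ETS pattern had a promoter summit and 41.3% of those without it. In the wider list, 12 of 16 genes with the pattern and 27 of 31 without it had one, a difference that rests on 4 genes without a summit in each class, and in the set itself 6 of 6 and 2 of 3 had one. The NRF1 pattern was in 10 of the 47 promoters, and a promoter summit was present at 9 of these 10 genes and at 30 of the 37 others. Over all genes, these shares were 81.5% with the NRF1 pattern and 42.4% without it.

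The tissue label was checked against markers. All 10 brown adipocyte markers had a promoter summit, with scores from 6.02 to 61.5 and a median of 15.8. The highest were Cidea with 61.5 and Ucp1 with 33.7, and 6 of the 10 had a score of at least 10. The list includes Pparg and Adipoq, which the study used as markers of adipogenesis, so it does not mark brown adipocytes alone. Of the endothelial, of the macrophage and leukocyte, and of the fat progenitor markers, 1 of 6 each had one (Cdh5, Cd68 and Pdgfra), with scores of 2.59, 2.15 and 4.16, and of 6 muscle markers 0 had one.

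**Figure D5:**
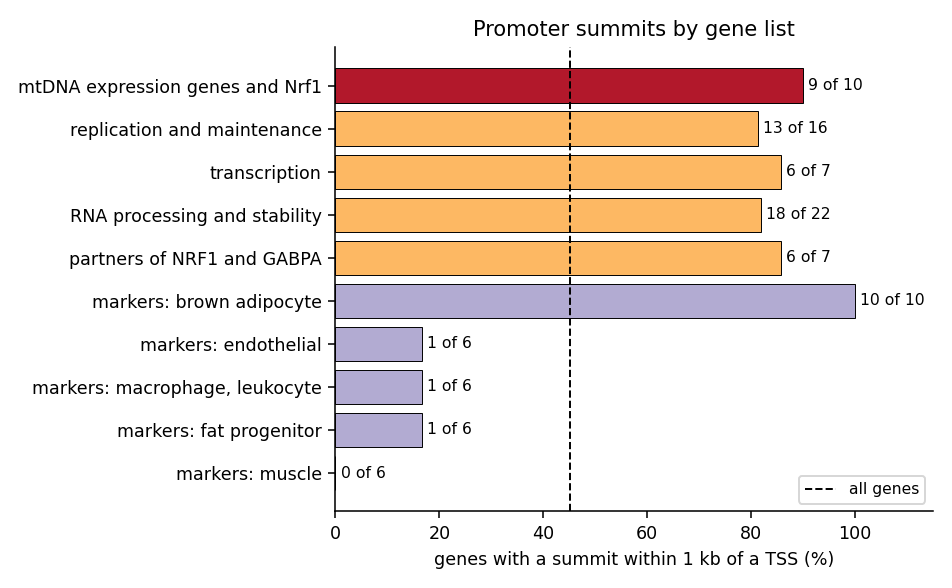
Share of genes with a summit within 1 kb of a TSS (%) for the 10 genes (red), the 4 groups of the wider list (orange) and 5 marker lists (purple), with counts beside the bars and the share of all genes, 45.2%, as a dashed line. The 10 genes and the 4 groups are to the right of the line, with from 81.2% to 90.0%, and the markers of cells other than brown adipocytes are to its left.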

How the data were processed

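Summits of 4 ATAC-seq libraries were used, from the BAT of 2 WT and 2 Dot1L-BKO mice. The 4 RNA-seq samples were not analysed here. The authors mapped reads to mm10 (BWA, run in Partek Flow) and called peaks by MACS2, keeping those with a q-value up to 0.05 and an enrichment over background of at least 2 fold. The submitters' processing notes also name CASAVA, bcl2fastq 2.2 and cutadapt 1.2.1, and give MACS2 as 2.1.1. The deposited list holds 1 position per summit and a score, the −log10 q-value, from the authors' peak caller. It is 1 list for the 4 libraries, depth is unknown, and whether the Dot1L-BKO libraries served as control is not known, so that a summit gives no direction between genotypes and a score may be openness or enrichment of WT over Dot1L-BKO libraries. Shifting of reads, removal of duplicates and the handling of mitochondrial reads are not given in the sources used here.

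Summits were placed against RefSeq mRNAs of GRCm38 on chromosomes 1 to 19, X and Y (25999 TSSs of curated mRNAs). Patterns were searched on both strands within 100 bp of summits and in promoter sequences from RefSeq. Besides those of ETS factors and NRF1, the patterns were GGGCGG (the GC box), AANATGGCG (bound by YY1), TGACGTCA (the cAMP response element), CACGTG (the E-box), ATTGG (the CCAAT box), TCAAGGTCA (estrogen-related receptors), TCCCNNGGG (EBF) and TATAAA (the TATA box). Printed sequences were read from the RefSeq genome and cut where an mRNA has a UTR, except sites of at most 30 bases. No test was made, since the list has no replicates. The genes named were the 10 genes, genes with a TSS within 1 kb of their promoter summits, the gene nearest to a locus summit with a score of at least 20, and, in each group of the wider list, the highest gene and those without a summit. Outside this rule, Trmt61b was named because it had no curated mRNA. Cep95 was named for a transcript start near the Ddx5 summit, and Pparg and Adipoq as markers of adipogenesis. The markers Ucp1, Cidea, Cdh5, Cd68 and Pdgfra were named after their values were seen. The member genes and the lists were chosen with earlier results of these data known. Alternatives changed the score minimum, merging, promoter and locus windows, transcripts and motif windows. Placement and pattern search were tested on simulated data. Python 3.11.15, numpy 2.4.6, pandas 2.3.3 and matplotlib 3.10.9 were used.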

Additional observations from a re-analysis of the deposited data

How the results depend on the processing

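The 37 summits in the loci became 20 with a score of at least 5, 13 with a score of at least 10, 14 with a window of 10 kb, 77 with a window of 100 kb, and 12 when, in place of the 50 kb limit, each summit in the list went to the gene of its nearest TSS (11 of the 37 and 1 more at Nrf1). Without the Polrmt locus, an alternative chosen after seeing the data, 17 were left. The median number per locus, 2 in the report, was 1 with a score of at least 10, with a window of 10 kb and by nearest TSS, and 4 with a window of 100 kb. With a score of at least 10, promoter summits were left at 5 of the 10 genes, at 26 of the wider list and at 4944 of all genes. A promoter window from 1 kb upstream to 100 bp downstream of the TSS also left 5 of the 10 genes, with a median score of 35.0, because the summits of Tfam, Polg2, Ssbp1 and Top1mt lie farther downstream. The same window left 34 of the wider list (43 in the report) and 7382 of all genes (9485 in the report). Windows of 500 bp and 5 kb and merged summits left 9 of the 10 genes with a promoter summit, beside 8704, 10506 and 9484 of the 21000 genes. All RefSeq mRNAs and GENCODE M21 transcripts (the last chosen after seeing the data) also left 9 of the 10, beside 9837 and 9799 genes. Those counts are over the genes of these transcript sets and not over the 21000 with a curated mRNA. Nrf1 had no promoter summit under any of these alternatives. The NRF1 pattern was at 0 of the 9 summits within 50 bp. The ETS pattern, at 1 of the 9 summits within 100 bp, was at 3 within 150 bp and in 6 of the 9 promoter sequences. The GC box was in 6 of the 9 promoter sequences. Shares over all promoter summits were not counted at 50 and 150 bp, so the counts at these widths cannot be read as a trait of the genes. Of 111 values for single genes, 26 moved, which for a count means by more than 1.5 times and for a score any difference. A further 4 promoter scores, of the genes just named, had no value in the window that ends 100 bp downstream. No paired analysis was possible because summits carry no value for single libraries, and for the same reason no replicate could be left out. Depth is unknown, so that a missing summit is not evidence of closed chromatin, and no change between genotypes can be read from these data.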

Other observations

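In the promoter sequences of the 9 genes, from 250 bases before to 50 after a TSS, the other patterns were found less often than the ETS pattern, apart from the GC box. The GC box was in 6 of 9 (Nrf1, Tfam, Tfb1m, Tfb2m, Polg and Ssbp1), beside 47.6% of 20488 promoters. Counts are of genes with a match in any of their promoter sequences, while the shares out of 20488 are of single promoters. The CCAAT box was in 2 (Nrf1 and Polg), beside 38.4%, and the YY1 pattern in 1 (Gabpa), beside 3.24%. The TATA box letters were in 2 (Nrf1 and Polrmt), beside 12.4%. The CCAAT and TATA matches of Nrf1 were at its second TSS, chr6:30076321, where GC content was 46.3%, beside 77.0% at the first. The TATA letters began at -96 from the second Nrf1 TSS and at -190 in Polrmt, and a match describes letters and not a working box. The cAMP response element, the E-box and the patterns of estrogen-related receptors and EBF were in 0 of 9, beside 2.30%, 8.03%, 0.337% and 7.34%. EBF letters were within 100 bp of 1 of the 9 highest promoter summits, that of Polrmt, beside 6.70% of those of all genes. The ratio of observed to expected CpG was highest at Ssbp1, with 1.11, and at Polrmt, with 1.04, and lowest among the main promoters at Tfam, with 0.59.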
